A study of Mus musculus with 36 samples.

Results

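The genes described here are the 126 zinc finger genes, of 24421 genes in the count tables, whose symbol begins with Zfp and whose annotated exons lie entirely on chromosome 7 (88 genes) or entirely on chromosome 13 (38 genes). They were picked by name and position with no measured value in the rule, and 245 more Zfp genes lie on other chromosomes. A symbol alone does not show which of these proteins carry a KRAB domain, and no protein sequences were at hand to look.

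Most proteins of this kind bind DNA through rows of C2H2 fingers, and many in the mouse also carry a KRAB domain, which recruits TRIM28 and, through it, the histone methyltransferase SETDB1 and HP1 proteins to silence the bound site. Such genes multiplied by tandem duplication and sit in clusters on a few chromosomes, and transposable elements are among their best known targets. POGZ is itself a zinc finger protein that binds HP1 proteins in chromatin, and damaging variants in the human gene cause a neurodevelopmental disorder.

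Cerebellar and hippocampal RNA of 18 adult C57Bl/6 mice was sequenced, which gave 36 libraries, with 6 mice (3 males and 3 females) in each of 3 genotypes. Controls carried floxed Pogz alleles and no Cre (Pogz fl/fl), the cKO+/- mice were NesCre/+; Pogz fl/+, and the cKO-/- mice were NesCre/+; Pogz fl/fl. Nestin-Cre acts in neural progenitors, so their neurons, astrocytes and oligodendrocytes inherit the deletion while cells of other origin, such as microglia, keep the gene. Because each mutant carried Cre and no control did, an effect of Cre and an effect of losing Pogz cannot be told apart where mutants are set against controls; cKO+/- and cKO-/- mice both carried it. All 6 controls were numbered between Sample_1120 and Sample_1219, while 3 cKO+/- mice (Sample_933, Sample_938 and Sample_1433) and 4 cKO-/- mice (Sample_936, Sample_1371, Sample_1379 and Sample_1385) had numbers outside that range. Animals are named here as in the labels. Library totals ran from 21421850 to 32544929 counts in the cerebellum and from 17609321 to 45544188 in the hippocampus. Levels are given as CPM, counts scaled to library size with TMM factors within a tissue, as mean ± SD over the animals of a group.

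The hippocampal library of the cKO-/- female Sample_1160 stood apart from the rest. Its median correlation with the other hippocampal libraries was 0.886, where the next lowest was 0.980. The study states that it excluded an outlier RNA sample without naming it, and an earlier analysis of these files identified this library as that sample. It was therefore left out of the hippocampal fits, which leaves 5 cKO-/- animals there, and the trend calls of the zinc finger genes there are also given over all 18. Of the 121 zinc finger genes tested in the hippocampus, 26 were higher in it than in all 17 other libraries and 62 were lower than in all of them. The matching counts over all tested genes are not given here, so these do not set the zinc finger genes apart. The plot of that library against the hippocampal controls shows genes on both sides.

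**Figure D1:**
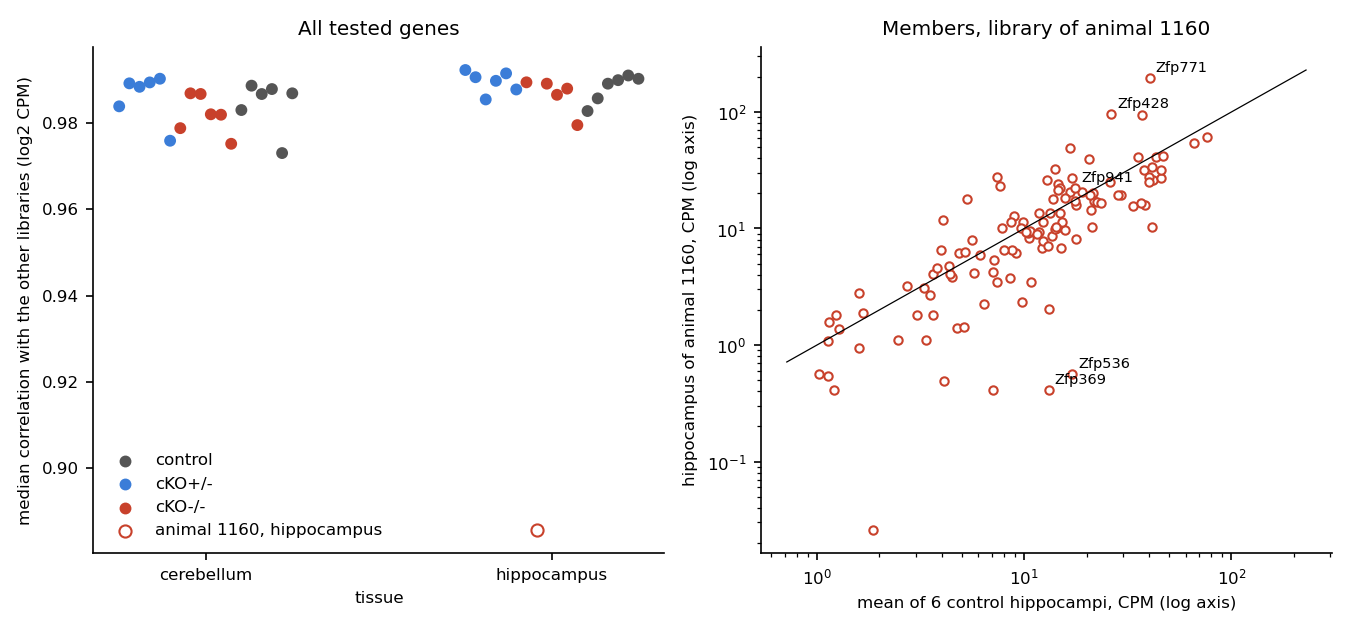
Left, median correlation of each library with the others of its tissue over all tested genes, by genotype, with the hippocampus of the cKO-/- female Sample_1160 at 0.886. Right, level of each tested zinc finger gene in that library against the hippocampal control mean, both in CPM on log axes; among those over 2-fold above all other libraries is Zfp771 at 195 CPM.

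The tissue labels were checked against markers. In controls, 10 of 10 cerebellar markers (among them Pcp2 of Purkinje cells and Gabra6 of granule cells) were higher in the cerebellum, and the hippocampal markers Prox1, Wfs1 and Neurod6, the only ones described here of the 10 on their list, were higher in the hippocampus. Pogz mRNA (chromosome 3) fell by genotype in both tissues. In the cerebellum its lowest, median and highest levels were 89.6, 93.1 and 129.6 CPM in controls, 66.4, 80.1 and 81.5 in cKO+/- and 57.0, 65.3 and 74.0 in cKO-/-. In the hippocampus they were 89.0, 90.7 and 92.8 CPM in controls, 74.0, 75.6 and 80.2 in cKO+/- and 58.7, 60.7 and 67.7 in cKO-/-. The 3 hippocampal groups did not overlap, and in the cerebellum cKO+/- and cKO-/- did. The log2 change per allele lost was -0.30 (SE 0.046, adjusted p = 0.000356) in the cerebellum and -0.28 (SE 0.020, adjusted p = 1.79e-07) in the hippocampus. Among the cerebella numbered Sample_1120 to Sample_1219 the Pogz change was -0.23 (adjusted p = 0.0664). The counts cover all exons of Pogz, the deleted ones and the others, so they do not measure how much of the gene was lost.

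Of all these zinc finger genes, Zfp941 moved the most, and it rose in both tissues. It lies near the far end of chromosome 7 on the minus strand (chr7:140809677-140822178, GRCm38). In the cerebellum the lowest, median and highest levels were 13.1, 14.5 and 17.2 CPM in controls, 17.6, 23.5 and 26.9 in cKO+/- and 24.4, 29.5 and 31.4 in cKO-/-. Every cKO+/- and cKO-/- library therefore lay above every control, while the cKO+/- and cKO-/- ranges overlapped. In the hippocampus the same 3 values were 13.2, 16.6 and 25.7 CPM in controls, 25.7, 27.7 and 37.5 in cKO+/- and 31.2, 33.4 and 44.9 in the 5 cKO-/- libraries. The highest hippocampal control lay just inside the cKO+/- range, all 5 cKO-/- libraries lay above the controls, and the library of Sample_1160, at 22.4 CPM, lay inside the control range.

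The rise per allele lost was 1.39-fold in the cerebellum (log2 0.47, SE 0.053, adjusted p = 1.37e-05) and 1.44-fold in the hippocampus (log2 0.52, SE 0.083, adjusted p = 0.00106). Over all 18 hippocampal libraries it was 0.46 on the log2 scale (adjusted p = 0.0134). The change did not differ detectably between the tissues (difference 0.04, SE 0.10, adjusted p = 0.897). In the cerebellum the cKO+/- mice alone also passed against controls, which they exceeded by 0.62 on the log2 scale (adjusted p = 0.00606). The cKO+/- value in the hippocampus was 0.72 (adjusted p = 0.113), short of the threshold. The cKO-/- mice, set against the same controls, stood 0.95 above them in the cerebellum (adjusted p = 8.57e-06) and 1.03 in the hippocampus (adjusted p = 0.000752). By p-value Zfp941 ranked 26th of the 997 genes that rose in the cerebellum and 47th of the 299 that rose in the hippocampus.

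**Figure D2:**
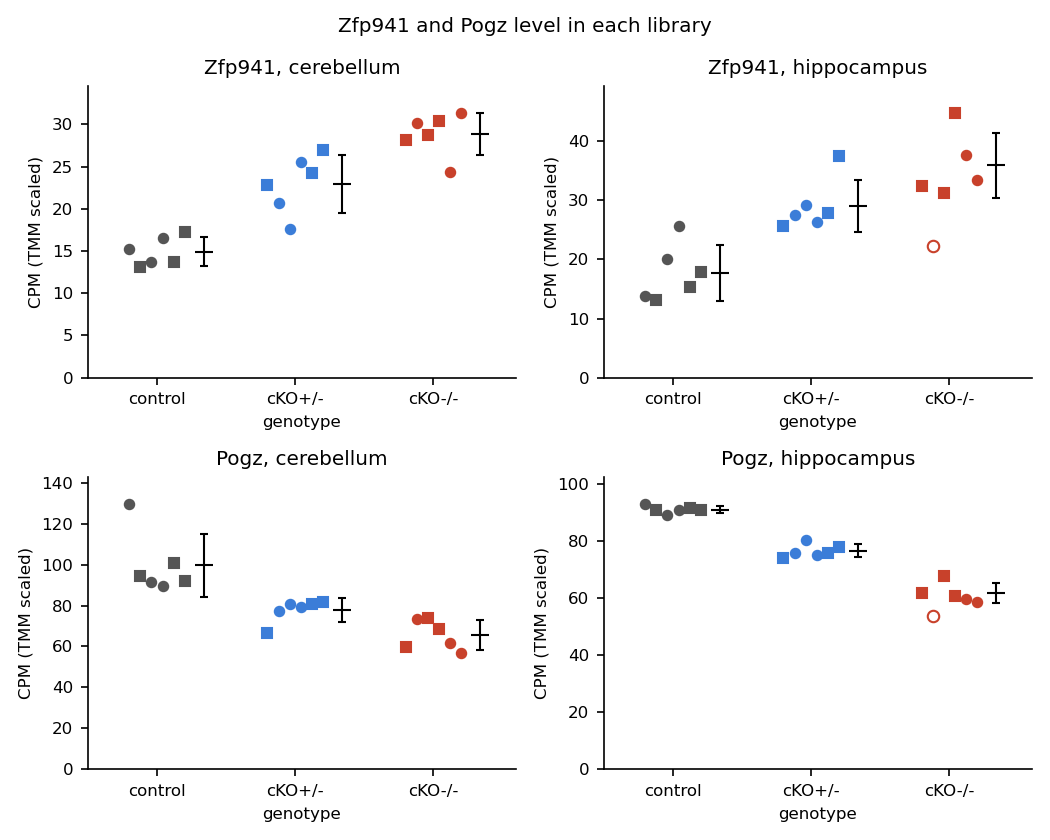
Levels of Zfp941 and Pogz in CPM in each library, by genotype and tissue, with circles for females, squares for males and bars for mean ± SD. Zfp941 climbs from control medians of 14.5 and 16.6 CPM to cKO-/- medians of 29.5 and 33.4, and the open symbol marks the hippocampus of Sample_1160, which the bars leave out.

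The animal numbers bear on this result. Among the 11 cerebellar libraries numbered Sample_1120 to Sample_1219 the change in Zfp941 was 0.51 (adjusted p = 0.00204). The cKO-/- libraries among them were Sample_1160 and Sample_1219. In the 10 hippocampal libraries of that range the change was 0.53, with Sample_1219 as the only cKO-/- library. With the number range as a term in the hippocampal fit it was 0.44 (adjusted p = 0.0814). The size of the change was thus close to the full one in all these fits, and the hippocampal call was lost with the term. Within the range the hippocampal fit rests on Sample_1219 alone for cKO-/- and cannot decide the call. This limit holds for every later hippocampal value within the range.

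Of the 20 listed genes within 150 kb of Zfp941, a window chosen after the data were seen, 7 were expressed enough to test in each tissue. In the cerebellum 1 of these 7 was called, Ifitm1, an interferon-induced membrane protein gene (log2 0.44, adjusted p = 0.028), where 13.7% of all tested genes were. The hippocampal edgeR fit called 0 of 7, where 4.44% of all tested genes were called. There 1 had an unadjusted p under 0.05, again Ifitm1 (log2 0.38, adjusted p = 0.0957). DESeq2 called 1 of the 7 in the hippocampus, against 1056 of all 14330 genes. Ifitm1 lies 145 kb from Zfp941, near the edge of the window. The 300 bases around the Zfp941 start hold few CG pairs, and they are printed here beside the promoters of Zfp367, which also rose, and Zfp784, which fell. These 3 were picked for the contrast in CG content after the data were seen, and capitals mark each CG. They are from RefSeq (GRCm38.p6), 5′ to 3′ on the minus strand, from 250 bases before to 50 bases after the annotated start: chr7:140822129-140822428 for Zfp941, chr13:64153150-64153449 for Zfp367 and chr7:5038397-5038696 for Zfp784.
Zfp941: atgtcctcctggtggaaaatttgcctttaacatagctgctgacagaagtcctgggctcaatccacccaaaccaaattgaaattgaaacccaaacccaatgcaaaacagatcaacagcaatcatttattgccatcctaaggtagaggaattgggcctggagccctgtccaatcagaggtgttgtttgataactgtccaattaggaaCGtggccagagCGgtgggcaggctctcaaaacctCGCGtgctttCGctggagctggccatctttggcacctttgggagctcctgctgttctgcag
Zfp367: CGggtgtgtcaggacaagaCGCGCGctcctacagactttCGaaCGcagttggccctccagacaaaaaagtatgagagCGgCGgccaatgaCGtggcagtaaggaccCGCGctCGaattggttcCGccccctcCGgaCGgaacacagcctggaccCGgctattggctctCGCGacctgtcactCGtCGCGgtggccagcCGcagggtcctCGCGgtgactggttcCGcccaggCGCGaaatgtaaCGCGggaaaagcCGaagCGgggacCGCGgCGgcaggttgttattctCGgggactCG
Zfp784: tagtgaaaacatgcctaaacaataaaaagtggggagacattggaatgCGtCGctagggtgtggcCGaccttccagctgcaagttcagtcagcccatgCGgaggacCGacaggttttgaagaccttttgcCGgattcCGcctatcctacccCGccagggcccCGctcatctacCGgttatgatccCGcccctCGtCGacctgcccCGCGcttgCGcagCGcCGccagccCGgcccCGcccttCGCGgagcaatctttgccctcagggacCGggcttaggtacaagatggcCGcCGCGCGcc

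Zfp941 has 5 CG pairs in this window, Zfp367 has 36 and Zfp784 has 27. Promoters of 110 of the 126 genes could be matched by symbol. Their median was 13 CG pairs, against 7 over the 27025 promoters in the table, and 66.4% of them had 10 or more, against 43.9% overall. The pair CG, which reads the same on both strands, occurred at least once in 100% of the matched promoters and in 94.2% of all. Chromosome 7 promoters were richer, with a median of 15 pairs over 79 genes, than those on chromosome 13, with 9 over 31 genes. These are counts of letters and carry no measure of methylation.

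In the cerebellum 7 of 120 tested genes changed per Pogz allele lost, 1 up and 6 down, while 13.7% of all 14027 tested genes were called (7.11% up and 6.55% down). The share among these zinc finger genes was thus below the background, and 25 of the 120 had an unadjusted p under 0.05. The drift was towards lower levels, with 85 of the 120 estimates negative and a median of -0.041 per allele lost, against 0.00087 over all tested genes. Zinc finger genes on other chromosomes had a median of -0.037, with 30 of 225 called. The median was -0.042 with size factors by relative log expression, -0.0065 with the number range as a term, and 0.0063 among the libraries numbered Sample_1120 to Sample_1219, where its sign turned. Bulk tissue was sequenced, so fewer cells of a type and less RNA per cell cannot be told apart in this or any later change.

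Zfp446 (chr7:12977848-12985716) had the smallest adjusted p of those that fell. Its levels were 18.7, 20.7 and 27.3 CPM (lowest, median, highest) in controls, 17.7, 18.4 and 21.6 in cKO+/- and 13.4, 16.0 and 17.2 in cKO-/-. The cKO-/- libraries all lay below the controls, and the cKO+/- libraries overlapped the controls. The log2 change per allele lost was -0.25 (SE 0.048, adjusted p = 0.00263). Zfp93 (chr7:24270418-24277794) went from 10.3, 10.8 and 11.8 CPM in controls through 9.22, 10.03 and 11.2 in cKO+/- to 7.96, 8.85 and 10.1 in cKO-/-. Its cKO-/- libraries also lay wholly below the controls, for a change of -0.14 (SE 0.037, adjusted p = 0.0179).

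Zfp296 (chr7:19577287-19580656), a gene known for its expression in embryonic stem cells, ran at 3.17, 3.63 and 4.03 CPM in controls, 2.63, 3.13 and 3.77 in cKO+/- and 1.80, 2.37 and 2.96 in cKO-/-. Controls and cKO-/- did not overlap, and the change was -0.30 (SE 0.080, adjusted p = 0.0209). Zfp784 (chr7:5034446-5038446) ran at 9.14, 10.1 and 13.3 CPM in controls, 8.52, 9.22 and 11.1 in cKO+/- and 6.93, 8.05 and 9.68 in cKO-/-. Here the 3 groups overlapped, and the change was -0.19 (SE 0.054, adjusted p = 0.0263).

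Zfp429 (chr13:67389328-67399767), in the large chromosome 13 cluster, was weakly expressed. Its controls ran at 1.81, 2.22 and 2.51 CPM, cKO+/- at 1.89, 2.23 and 2.57 and cKO-/- at 1.34, 1.64 and 1.70. The cKO-/- libraries lay below all others, the cKO+/- mice stood level with controls (log2 0.0037), and the trend was -0.23 per allele (SE 0.070, adjusted p = 0.0347). Zfp788 (chr7:41633531-41651532) was the most abundant of the 7 by CPM, at 52.7, 58.4 and 65.6 in controls, 50.6, 53.2 and 61.7 in cKO+/- and 46.8, 50.6 and 56.8 in cKO-/-. Its groups overlapped, with a change of -0.10 (SE 0.032, adjusted p = 0.0443).

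Some of these calls depended on single animals, more than the size of the changes did. With each animal left out in turn, the change ran from -0.33 to -0.26 for Zfp296, -0.21 to -0.16 for Zfp784, -0.26 to -0.21 for Zfp429 and -0.12 to -0.080 for Zfp788. Without any 1 of the 18 animals, Zfp446, Zfp93 and Zfp941 stayed called. Zfp296 was lost without Sample_1385 (adjusted p = 0.0581), and Zfp784 without Sample_1172, Sample_1190, Sample_1371 or Sample_1385 (0.0596 to 0.0744). Zfp429 was lost without any of 8 animals (Sample_936, Sample_1129, Sample_1155, Sample_1160, Sample_1172, Sample_1219, Sample_1371 and Sample_1385; adjusted p of 0.0517 to 0.0730) and without the filter on low counts (0.0506). Zfp788 was lost without any of 13, all but Sample_933, Sample_1160, Sample_1170, Sample_1219 and Sample_1433 (0.0527 to 0.113). The count of 7 was 3 without Sample_1385, 4 without Sample_1172 or Sample_1371 and 15 without Sample_1219. Over all genes edgeR called 935 without Sample_1385, 1450 without Sample_1172, 1234 without Sample_1371 and 2317 without Sample_1219, against 1916 in the main fit. DESeq2 called 13, which included all 7, and 2569 of all 14026 genes. Of the 7 genes, 2 (Zfp446 and Zfp941) were called with the number range as a term, and 1 (Zfp941) within the range. Over all genes edgeR called 308 with that term and 277 within the range. The log2 changes of those that lost the call, with the term and then within the range, were -0.29 and -0.24 for Zfp429, -0.17 and -0.19 for Zfp784, -0.11 and -0.097 for Zfp93, -0.21 and -0.14 for Zfp296 and -0.077 and -0.057 for Zfp788. Zfp446 was at -0.20 within the range. With genotype as 3 classes, cKO-/- against controls called 6 of the 7, all but Zfp788 (adjusted p = 0.0534), and cKO+/- against the same controls called Zfp941 alone.

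By the plainer measure of groups that do not overlap, the cKO-/- libraries lay wholly on one side of the cerebellar controls for 7 of the 120 genes, against 4.58% of all tested genes. They were Zfp941 and Zfp456 above, and Zfp429, Zfp446, Zfp296, Zfp93 and Zfp764 below. Zfp456 (log2 0.27, adjusted p = 0.0513) and Zfp764 (log2 -0.18, adjusted p = 0.0504) missed the edgeR threshold. Both passed it without the sex term, and Zfp764 also with relative log expression factors and by DESeq2.

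**Figure D3:**
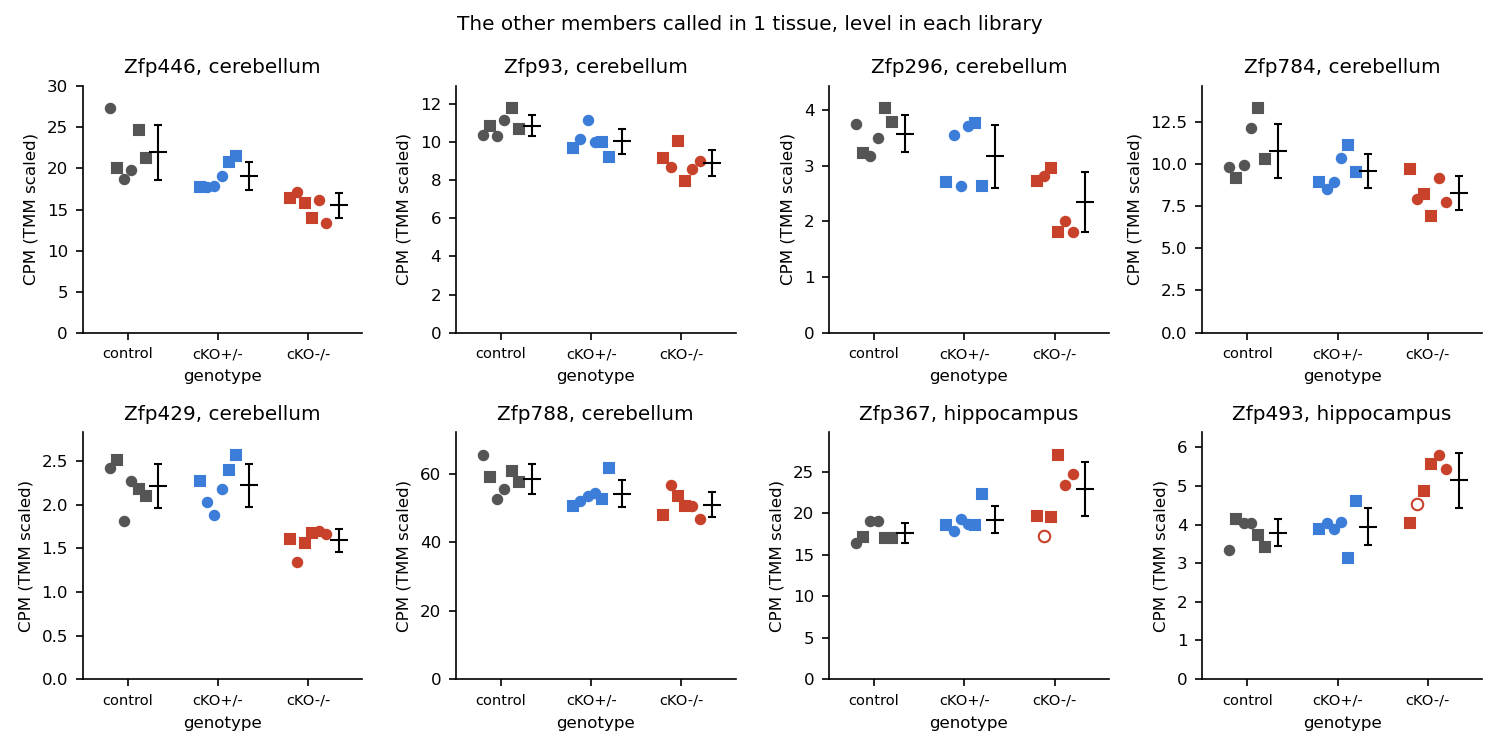
Level in CPM in each library of the 6 genes called lower in the cerebellum and of Zfp367 and Zfp493, called higher in the hippocampus, by genotype. Circles are females, squares are males, bars are mean ± SD and open circles mark Sample_1160. Zfp446 goes from a control mean of 21.98 ± 3.35 to 15.5 ± 1.49 CPM in cKO-/-.

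In the hippocampus 3 of 121 tested genes changed, all upward, where 4.44% of all 14339 tested genes were called (2.09% up and 2.35% down). An unadjusted p under 0.05 was reached by 15 of the 121. Over all 18 libraries 1 of 121 was called, Zfp941, against 1.72% of all genes. Beside Zfp941 these were Zfp367 and Zfp493, both on chromosome 13.

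Zfp367 (chr13:64133057-64153199) ran at 16.4, 17.05 and 19.1 CPM (lowest, median, highest) in hippocampal controls, 17.8, 18.6 and 22.3 in cKO+/- and 19.5, 23.4 and 27.0 in cKO-/-. The cKO-/- libraries lay above all controls, except that of Sample_1160 at 17.2, which was left out. The change was 0.19 per allele (SE 0.042, adjusted p = 0.0178), and 0.16 over all 18 libraries (adjusted p = 0.141). In the cerebellum the gene was at 32.3 ± 2.33 CPM in controls and 37.0 ± 3.73 in cKO-/-, and did not pass by edgeR (log2 0.10, adjusted p = 0.0611), except without Sample_1219, while DESeq2 called it. The difference between the tissues was not detectable either (0.08, adjusted p = 0.540).

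Zfp493 (chr13:67779693-67789080) ran at 3.34, 3.89 and 4.14 CPM in controls, 3.13, 3.97 and 4.62 in cKO+/- and 4.04, 5.44 and 5.80 in cKO-/-. Controls and cKO-/- overlapped in 1 cKO-/- library, and the change was 0.22 (SE 0.058, adjusted p = 0.0428). Over all 18 libraries it was 0.20 (adjusted p = 0.0990), and without the filter on low counts 0.21 (adjusted p = 0.0622), short of the threshold in both. The Zfp493 call was kept only without Sample_936, Sample_938, Sample_1120, Sample_1155, Sample_1176, Sample_1189 or Sample_1433 and lost without any of the 10 others (adjusted p of 0.0503 to 0.133), while its change ran from 0.19 to 0.24. The Zfp367 call was lost without Sample_1371, Sample_1379 or Sample_1385 (adjusted p of 0.0550, 0.0534 and 0.0516), each of which left 1 of the 3 genes called, Zfp941; the Zfp367 change ran from 0.15 to 0.21. With the number range as a term edgeR called 0 of the 121, with 7 at an unadjusted p under 0.05. Over all genes it called 68 there, against 636 in the main fit, and DESeq2 was not run in that form. The log2 changes, with the term and then within the range, were 0.14 and 0.089 for Zfp367 and 0.17 and 0.12 for Zfp493. Within the range Sample_1219 was the only cKO-/- library.

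The hippocampal edgeR contrast of cKO+/- with controls called 0 of 121, where 4 had an unadjusted p under 0.05, and called only 5 of all 14339 genes. The trend fitted by DESeq2 called the same 3 genes as edgeR, among 1056 of all 14330 genes. The cKO-/- libraries lay wholly on one side of the hippocampal controls for 3 genes, Zfp367, Zfp418 and Zfp941, all above, against 3.65% of all tested genes. With Sample_1160 included the count was 0, against 2.15%.

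The median hippocampal estimate was 0.012 per allele over the 121 genes and 0.0017 over all tested genes. Single animals moved it, to 0.00631 without Sample_1129, 0.00421 without Sample_1170, 0.00242 without Sample_1371, 0.00126 without Sample_1379, 0.000274 without Sample_1385 and 0.0210 without Sample_936. With all 18 libraries its sign turned (-0.0057), as it did with the number range as a term (-0.0054) and within that range (-0.017). The median was 0.046 on chromosome 13, with 30 of 36 estimates positive, and -0.0060 on chromosome 7, with 42 of 85. Over all 18 libraries these 2 medians were 0.022 and -0.018, and 21 of the 36 on chromosome 13 were positive. The tilt of chromosome 13 was therefore smaller with Sample_1160 in the fit. In the large chromosome 13 cluster the highest hippocampal sums were those of Sample_1371, Sample_1379, Sample_1385 and Sample_1433, all numbered above Sample_1219.

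**Figure D4:**
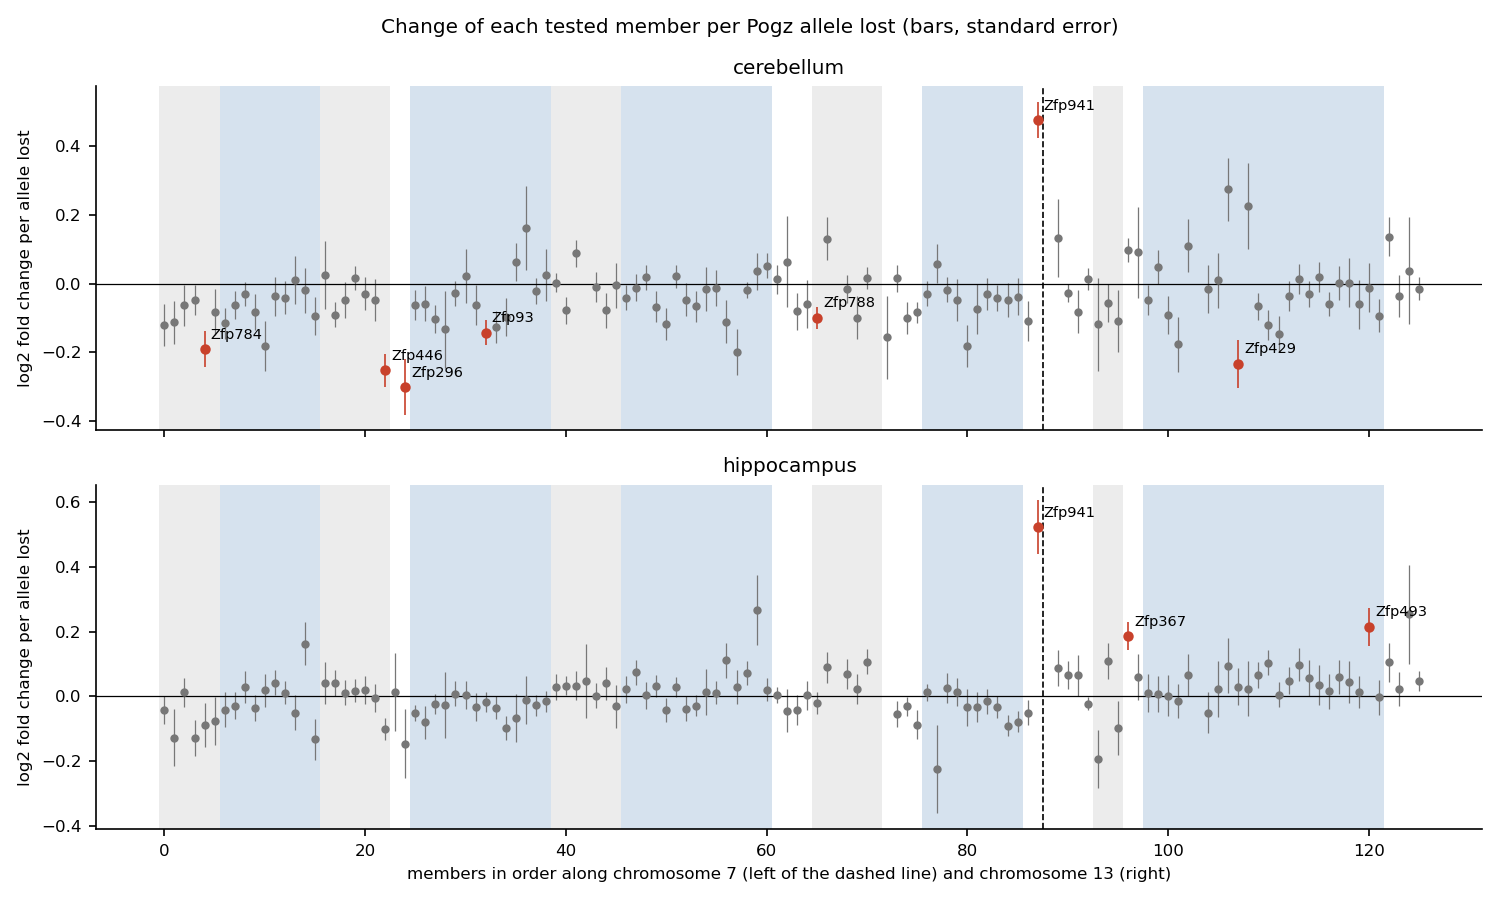
Log2 change per Pogz allele lost (with SE) of each tested gene in the cerebellum and hippocampus, in order along chromosome 7 (left of the dashed line) and chromosome 13 (right); shading marks clusters, and called genes are named. Zfp941, at 0.47 and 0.52, stands alone beside the last chromosome 7 members, outside any cluster.

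Only 1 of the 122 genes tested across both tissues responded differently in them by the interaction test, against 1.65% of all tested genes. Zfp874b (chr13:67471513-67484253) ran at 23.7, 26.2 and 28.8 CPM in cerebellar controls, 21.4, 22.9 and 24.8 in cKO+/- and 16.7, 23.1 and 25.5 in cKO-/-. In the hippocampus it ran at 13.3, 14.8 and 16.7 CPM in controls, 12.99, 15.5 and 16.5 in cKO+/- and 14.9, 17.03 and 19.5 in cKO-/-. The groups overlapped in both tissues, and the edgeR trend passed in neither (log2 -0.12 and 0.10, adjusted p = 0.0688 and 0.140), though DESeq2 called the cerebellar fall, as did edgeR without Sample_1219. The difference of the trends was 0.22 (SE 0.059, adjusted p = 0.0498). It was lost without any of 16 animals, all but Sample_1160 and Sample_1219 (log2 0.19 to 0.23, adjusted p of 0.0503 to 0.135), with size factors by relative log expression (adjusted p = 0.0509) and with the number range as a term (log2 0.15, adjusted p = 0.9995). The main fit held no term for the animal, though each animal gave both tissues. With the animal as a block the call was kept, among 351 genes called, against 245 in the main fit. The call was also kept over all 36 libraries and by DESeq2.

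Position groups most of these genes tightly. Joining genes less than 1 Mb apart puts 103 of the 126 in 10 clusters of 3 or more, 8 on chromosome 7 and 2 on chromosome 13, and leaves 23 outside, Zfp941 among them. The largest, chr13:67038594-67827000, runs from Zfp712 to Zfp273 and holds 24 of these genes among 28 listed, 19 of them on the minus strand. Its 23 tested genes had a median cerebellar change of -0.030 with 9 positive, and a median hippocampal change of 0.030 with 20 positive. Over all 18 hippocampal libraries the median was 0.022 with 14 positive and 0 called by edgeR (2 at an unadjusted p under 0.05; DESeq2 was not run on all 18). By edgeR each tissue had 1 call in it (4.35% of the 23, against 13.7% and 4.44% of all tested genes), Zfp429 down in the cerebellum and Zfp493 up in the hippocampus, and DESeq2 called 3 (all lower) and 1. Over all genes DESeq2 called 2569 of 14026 in the cerebellum and 1056 of 14330 in the hippocampus. Summed over the cluster, cerebellar levels were 238 ± 8.75 CPM in controls, 231 ± 6.52 in cKO+/- and 224 ± 15.9 in cKO-/-. Hippocampal sums were 178 ± 10.5, 177 ± 16.7 and 191 ± 19.7 CPM, and the groups overlapped in both tissues. Hippocampal controls ran from 167 to 191 CPM. Above them all lay the cKO-/- libraries Sample_1371, Sample_1379 and Sample_1385 (203 to 210) and the cKO+/- library Sample_1433 (206), numbered above Sample_1219. The cKO-/- libraries Sample_936 and Sample_1219 were at 165 and 175. The library of Sample_1160, left out, was at 157, below every control.

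The second largest cluster, chr7:29768552-30169727 from Zfp84 to Zfp146, holds 15 of these genes among 17 listed, and edgeR called 0 of the 15 in each tissue. Of all tested genes it called 13.7% in the cerebellum and 4.44% in the hippocampus. An unadjusted p under 0.05 was reached by 2 in the cerebellum and 1 in the hippocampus, and DESeq2 called 1 and 0. Its summed level was 404 ± 9.77 CPM in cerebellar controls and 392 ± 24.98 in cKO-/-, and 307 ± 11.7 and 324 ± 26.4 in the hippocampus. A cluster at the start of chromosome 7 (chr7:4915217-5053723, from Zfp628 to Zfp580) had 6 of 6 cerebellar estimates negative, with a median of -0.098. Of these 6, 1 was called, Zfp784, where 13.7% of all tested genes were. Its sums were 96.0 ± 9.49 CPM in controls, 93.1 ± 8.17 in cKO+/- and 84.0 ± 7.27 in cKO-/-, with overlap. In the small chromosome 13 cluster from Zfp808 to Zfp934 (chr13:62129890-62558599), 3 of 3 cerebellar estimates were negative (median -0.11) and 0 were called, by edgeR, with 0 at an unadjusted p under 0.05 and 0 by DESeq2.

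The summed level of all 126 genes overlapped between genotypes in both tissues. It was 2299 ± 38.5 CPM in cerebellar controls, 2238 ± 51.7 in cKO+/- and 2200 ± 133 in cKO-/-. The hippocampal sums were 1880 ± 39.1 in controls, 1864 ± 37.1 in cKO+/- and 1900 ± 50.4 in the 5 cKO-/- libraries. These genes together took 0.208 to 0.235% of cerebellar and 0.181 to 0.196% of hippocampal counts, the latter without Sample_1160 at 0.175%.

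Per kb of exon, the highest control levels on chromosome 7 belonged to Zfp260 (26.9 ± 0.705 CPM per kb), Zfp146 (24.0 ± 2.51) and Zfp771 (21.8 ± 2.81) in the cerebellum. In the hippocampus they belonged to Zfp771 (32.7 ± 3.995), Zfp428 (21.5 ± 1.14) and Zfp260 (20.5 ± 1.28). Cerebellar Zfp146 and Zfp771 lay within their spread of each other, as did hippocampal Zfp428 and Zfp260. On chromosome 13 the order was Zfp346, Zfp131 and Zfp322a in both tissues, at 17.4 ± 0.730, 14.5 ± 0.958 and 10.1 ± 0.558 CPM per kb in the cerebellum. Their hippocampal levels were 13.03 ± 0.172, 12.1 ± 0.733 and 7.72 ± 0.431 CPM per kb. Zfp346 encodes a protein that binds double-stranded RNA. None of these 7 genes was called for genotype in either tissue, where 13.7% (cerebellum) and 4.44% (hippocampus) of all tested genes were.

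Of the 126 genes, 119 were tested in both tissues, and 4 (Zfp389, Zfp457, Zfp936 and Zfp819) passed the filter of 1 CPM in 6 libraries in neither. Zfp541 and Zfp607 were tested in the hippocampus only, and Zfp473 in the cerebellum only.

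**Figure D5:**
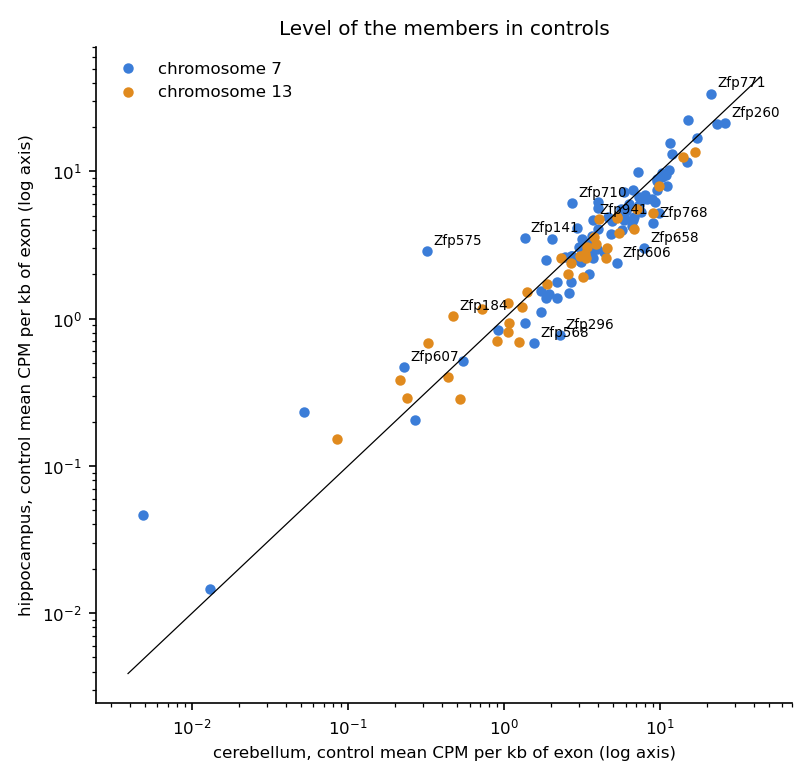
Control level per kb of exon of each gene in the cerebellum and in the hippocampus, on log axes, as means of 6 libraries scaled over both tissues together. Zfp575 stands above the diagonal at 2.87 against 0.321 CPM per kb, and Zfp296 below it at 0.769 against 2.27.

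In the 12 control libraries 72 of 120 tested genes (60.0%) differed between hippocampus and cerebellum, below the 71.9% of all tested genes. Of these, 55 were higher in the cerebellum (36.7% of all genes were) and 17 in the hippocampus (35.2%). The median difference, hippocampus minus cerebellum, was -0.18 on the log2 scale, against -0.023 over all tested genes. Zinc finger genes on other chromosomes gave -0.17, with 155 of 227 called, a median close to theirs. With the animal as a replicate block 74 were called, 71 of them in common.

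Zfp575 (chr7:24583838-24587641) had the widest gap, with 0.702 to 1.07 CPM in cerebellar and 7.25 to 8.35 CPM in hippocampal controls, here scaled over both tissues together. The ranges lie far apart, and the difference was 3.15 on the log2 scale (SE 0.13, adjusted p = 6.46e-11). Its exons share 99 bases with Ethe1 on the other strand, and whether the reads were counted by strand is not stated. Other genes higher in the hippocampus were Zfp141 (log2 1.39), Zfp710 (1.15), Zfp184 (1.15) and Zfp607 (1.04), with adjusted p of 0.00373 or less. Zfp607 and Zfp184 were weak, with cerebellar means of 0.803 and 1.27 CPM.

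Higher in the cerebellum were Zfp296 (log2 -1.55), Zfp658 (-1.40), Zfp568 (-1.19), Zfp606 (-1.14) and Zfp768 (-1.02). Zfp568, a KRAB zinc finger gene that silences a placental Igf2 transcript in the embryo, ran at 9.14 to 13.1 CPM in cerebellar and 3.97 to 5.74 CPM in hippocampal controls. Zfp658 ran at 25.1 to 29.8 and 7.84 to 12.05 CPM. For each of these 5 genes every cerebellar control lay above every hippocampal one. Zfp296, which fell with genotype in the cerebellum, was at 3.09 to 3.87 CPM in cerebellar and 0.973 to 1.51 CPM in hippocampal controls. All 5 had an adjusted p of 1.19e-06 or less.

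Few of these genes passed the test for sex. In the cerebellum edgeR called 0 of 120 genes between males and females, with 2 at an unadjusted p under 0.05 and 0 called by DESeq2, against 0.0499% of all genes. In the hippocampus it called 1 of 121, against 0.907%. That gene, Zfp526 (chr7:25221451-25227505), stood at 9.81 ± 0.412 CPM in 8 females and 11.5 ± 0.815 in 9 males (log2 0.23, adjusted p = 0.0486). The call was lost without any of 13 animals, all but Sample_936, Sample_1371, Sample_1379 and Sample_1433 (log2 0.21 to 0.24, adjusted p of 0.0536 to 0.120). It was also lost over all 18 libraries (log2 0.34, adjusted p = 0.392) and without the filter on low counts (log2 0.24, adjusted p = 0.0643). DESeq2 called 3 genes, Zfp526 among them, and without Sample_936 or Sample_1379 edgeR called 2.

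The partners through which KRAB zinc finger proteins silence chromatin were followed as a list of 30 genes. In the cerebellum 3 of 28 tested rose and 1 fell (14.3% called, against 13.7% of all tested genes). DESeq2 called 5 of the 28, against 2569 of all 14026 genes. Atf7ip, which stabilises SETDB1, went from 76.5 ± 17.8 to 120 ± 25.1 CPM in cKO-/- (log2 0.33 per allele, SE 0.076, adjusted p = 0.00973). Chd3, a remodeller of the NuRD complex, went from 231 ± 34.1 to 308 ± 35.3 CPM (log2 0.21, adjusted p = 0.00848). Adnp2, a relative of the HP1 and CHD4 partner ADNP, rose by 0.19 (adjusted p = 0.00973). Fam208a, which encodes the HUSH complex subunit TASOR, fell by 0.16 (adjusted p = 0.0239), and it lost the call without Sample_1129, Sample_1190 or Sample_1385 (log2 -0.12, -0.16 and -0.13, adjusted p of 0.0591, 0.0503 and 0.0663).

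In the hippocampus 1 of 29 tested rose (3.45%, against 4.44% of all tested genes), Atf7ip, from 56.3 ± 5.39 to 80.1 ± 5.17 CPM (log2 0.24, SE 0.033, adjusted p = 0.000252). DESeq2 called 2 of the 29, against 1056 of all 14330 genes. Over all 18 libraries Atf7ip missed the threshold (log2 0.17, adjusted p = 0.273) and edgeR called 0 of the 29, with 4 at an unadjusted p under 0.05. Trim28 itself was not called in the cerebellum (log2 -0.058, adjusted p = 0.230) or the hippocampus (-0.074, adjusted p = 0.205). Setdb1 was at -0.15 (adjusted p = 0.0645) and -0.065 (adjusted p = 0.257). Of the 4 cerebellar calls, Chd3 and Fam208a were lost with the number range as a term (log2 0.14 and -0.15, adjusted p = 0.197 and 0.184) and within it (log2 0.13 and -0.14, adjusted p = 0.320 and 0.236). Within that range the hippocampal Atf7ip change was 0.20 on the log2 scale, with Sample_1219 as the only cKO-/- library.

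Markers of other cells moved with genotype in the cerebellum. The microglial genes Cx3cr1 and P2ry12 rose (log2 0.25 and 0.27, adjusted p = 0.0148 and 0.00994). Cx3cr1 was at 13.3 ± 0.842 CPM in controls and 18.9 ± 3.74 in cKO-/-, and P2ry12 at 9.59 ± 1.32 and 13.96 ± 2.44. The cKO-/- ranges overlapped those of controls for both. Of 8 oligodendrocyte genes 2 rose by edgeR (where 7.11% of all tested genes did) and 5 by DESeq2 (where 1312 of all 14026 genes did). EdgeR called Cnp (0.19) and Opalin (0.52), and the sums were 5009 ± 705, 6201 ± 1886 and 6744 ± 1823 CPM, led by Mbp. Of 5 endothelial genes Ly6c1 fell by 0.30 on the log2 scale (where 6.55% of all tested genes fell), with sums of 179 ± 23.1, 191 ± 30.8 and 174 ± 34.7 CPM, led by Flt1. Among mutants numbered Sample_1120 to Sample_1219 the oligodendrocyte sums were 4266 to 6740 CPM, against 4047 to 5996 in controls. Mutants numbered outside that range had 5303 to 9591 CPM. The part of these cells in the cerebellar results was not tested, nor was that of the number range in these sums.

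Choroid plexus RNA came and went between libraries. The cerebellar sum of its 10 markers, of which Folr1 was at 0 in all controls and Clic6 led, was 21.5 to 30.0 CPM in controls, and 2413 and 3227 in cKO+/- mice Sample_933 and Sample_1433 and 3101 in cKO-/- Sample_936. Sample_933, Sample_1433 and Sample_936 were all numbered outside Sample_1120 to Sample_1219. The other 9 mutant cerebella had 23.3 to 82.5 CPM. EdgeR called 0 of the 7 tested, where 2 had an unadjusted p under 0.05. DESeq2 called 2 of the 7, against 2569 of all 14026 genes. In the hippocampus the sum ran from 33.9 to 5021 CPM in controls, from 25.9 to 679 in cKO+/- and from 28.4 to 5166 in cKO-/-. There edgeR called 0 of 9 with 0 at an unadjusted p under 0.05, and DESeq2 called 0. The part of choroid plexus RNA in the results was not tested.

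In the hippocampus neither Cx3cr1 nor P2ry12 was called (log2 0.054 and 0.12, adjusted p = 0.373 and 0.268). Of the oligodendrocyte list edgeR called 0 of 8, with 4 at an unadjusted p under 0.05 and 1 called by DESeq2, at sums of 4557 ± 963, 4663 ± 749 and 5596 ± 1304 CPM. Of 5 endothelial genes edgeR called Pecam1 (log2 0.27, adjusted p = 0.0482) and DESeq2 called 2, all higher, at sums of 126 ± 14.5, 132 ± 23.2 and 168 ± 41.7 CPM. By edgeR 2.09% of all tested genes were higher, and DESeq2 called 497 of all 14330 genes higher. Of the cerebellar markers Barhl1 fell in the cerebellum by 0.29. DESeq2 called 1 of the 10 there, lower, and 1257 of all 14026 genes lower. In the hippocampus edgeR called 0 of 5 cerebellar markers, with 0 at an unadjusted p under 0.05 and 0 by DESeq2. Whether these shifts bear on the hippocampal zinc finger genes was not tested.

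Near-identical genes can share reads, and the reads here were 43 bases long. Of the 118 genes with transcripts in GENCODE vM1, 55 shared no 43-base stretch with a transcript of any other protein-coding gene, and 19 shared over 10% of theirs. Zfp941 shared 0.176%. Zfp429 shared 31.6%, most of it with Rsl1, and Zfp874b shared 15.7%, most of it with its neighbour Zfp874a. Zfp93 shared 15.1%, most with Zfp108, and Zfp493 shared 4.29%. Among others named above, Zfp764 shared 34.8%, Zfp607 16.6%, Zfp456 15.8% and Zfp141 14.1%. How the study treated reads that fit several places is not stated, so the values of these genes that shared over 10% are less certain. Exons of 9 genes overlap those of another gene, 8 of them on the opposite strand.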

How the data were processed

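The deposited tables hold raw read counts per gene, which the authors made with STAR (v250a) from 43-base paired-end reads of poly(A) RNA. The deposited exon length per gene (in bases) gave levels per kb. The notes state mm9, but starts or ends of 120 of 125 genes matched by symbol lie within 1000 bases of RefSeq GRCm38.p6, against 0 of 119 for NCBIM37, so positions are given as GRCm38.

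Genes above 1 CPM in at least 6 libraries of a fit were tested with edgeR 4.0.16 in R 4.3.3 (TMM factors, quasi-likelihood F test in its legacy form). Its model held a sex term and the count of intact Pogz alleles (2, 1 or 0), with the sign turned to alleles lost. P-values were adjusted by Benjamini-Hochberg over all tested genes, and called means an adjusted p under 0.05. Controls were compared between tissues, and the tissue by allele term was fitted over 35 libraries. Neither of these main fits held a term for the animal. The hippocampal library of Sample_1160 was left out because an earlier analysis of these files identified it as the outlier that the study excluded without naming it. Alternatives were DESeq2 1.42.0, relative log expression factors, no low-count filter, no sex term, genotype as a factor, the animal number range, the animal as a block, all libraries, and leaving out each animal. The trend fit was also run on simulated cerebellar counts with the same dispersion for all genes, no sex effect and no outlier library. That run does not check the calls made here.

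Each animal gave both tissues. After group means were removed, the correlation of an animal's tissues had a median of 0.194 over 17 animals (from -0.159 to 0.430).

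Named genes are Pogz, up to 8 called members per direction and tissue, members called for both tissues, the interaction, sex or the widest control tissue differences, the 3 highest per kb on each chromosome, and called genes of the list of KRAB partners. The lists of KRAB partners and of markers for choroid plexus, brainstem and midbrain, oligodendrocytes, microglia, endothelium, cerebellum and hippocampus matched in full. Some of the marker genes, and the sums and counts over the lists that hold them, are not reported here. Zfp456, Zfp764, Zfp418, the genes of the over 2-fold group in Sample_1160 and the neighbours of Zfp941 were named after their values were seen. The members and lists were chosen with earlier results of these data known.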

Additional observations from a re-analysis of the deposited data

Results flagged for a closer look

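Some samples stood far from the others of their group. Over 192 groups of 5 or 6 samples for the named genes, 16 (8.33%) had a sample whose gap to its nearest neighbour passed Dixon's critical value, where chance gives about 1 in 20.

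Sample_1433, a cKO+/- male, accounted for 6 of these. In its hippocampus Zfp941 was at 37.5 CPM (25.7 to 29.2 in the other 5), Zfp367 at 22.3 (17.8 to 19.3) and Zfp322a at 49.9 (35.6 to 40.3), all high. Zfp771 at 20.8 CPM (38.5 to 45.5) and Zfp428 at 21.2 (29.1 to 31.2) were low there, and in its cerebellum Zfp788 was high at 61.7 (50.6 to 54.5).

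In the control female Sample_1129, cerebellar Pogz was high at 129.6 CPM (89.6 to 100.7 in the others), and so was Zfp131 at 61.7 (51.7 to 54.7). In the control female Sample_1172, hippocampal Zfp322a at 44.4 CPM (37.9 to 40.0) and Fam208a at 85.8 (75.03 to 77.8) were high. In the cKO-/- male Sample_936, hippocampal Zfp784 was high at 8.78 CPM (5.86 to 6.58) and cerebellar Zfp874b was low at 16.7 (22.4 to 25.5). Cerebellar Pogz was low in the cKO+/- male Sample_933 at 66.4 CPM (77.3 to 81.5). Cerebellar Zfp429 was low in the cKO-/- female Sample_1160 at 1.34 CPM (1.57 to 1.70). Hippocampal Chd3 was low in the cKO-/- female Sample_1385 at 890 CPM (1001 to 1032). Hippocampal Atf7ip was low in the cKO+/- female Sample_1120 at 49.7 CPM (61.6 to 67.8).

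The allele effect on Zfp874b differed between hippocampus and cerebellum by 0.22 on the log2 scale in the interaction test (adjusted p = 0.0498).

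The hippocampal library of the cKO-/- female Sample_1160, left out of the fits, had 9 zinc finger genes over 2-fold above the highest of the other 17 libraries, a limit chosen after the data were seen. Zfp771 was at 195 CPM (others up to 48.2), Zfp428 at 95.7 (31.2), Zfp444 at 94.8 (40.6) and Zfp580 at 49.2 (20.4). Zfp511 was at 32.1 CPM (15.0), Zfp688 at 27.8 (8.26), Zfp575 at 23.1 (10.3), Zfp524 at 17.9 (6.22) and Zfp825 at 11.7 (4.97). Another 15 genes were over 2-fold below the lowest of the others. Neither count has its match over all tested genes here, so they do not set the zinc finger genes apart. The cause was not tested.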

How the results depend on the processing

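Of 585 gene results under other settings, 466 kept their direction and side of the threshold, 118 lost the call and 1 turned its sign, cerebellar Zfp429 at 0.0037 for cKO+/- against controls. The cause was not tested. Cerebellar Zfp941 was called in all 26 settings.

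The count of called cerebellar genes (7) was 1 for cKO+/- against controls, 2 with the number range as a term, 1 within the range and 13 by DESeq2, which included all 7. Leaving out each animal gave 3 (without Sample_1385) to 15 (without Sample_1219). Over all genes the cerebellar counts were 48, 308, 277 and 2569 in the first 4 of these settings, against 1916 in the main fit. They were 935 without Sample_1385 and 2317 without Sample_1219. The hippocampal count (3) was 0 and 0 in the first 2 of these settings and 1 over all 18 libraries. Within the range Sample_1219 was the only hippocampal cKO-/- library, so no count is given there. Leaving out each animal gave 1 (without Sample_1371, Sample_1379 or Sample_1385) to 4 (without Sample_936). Over all genes the hippocampal counts were 5 and 68 in those 2 settings and 246 over all 18 libraries, against 636 in the main fit. By edgeR 4 and 7 of the 121 zinc finger genes had an unadjusted p under 0.05 where the count was 0. The settings on animal numbers keep fewer libraries or add a term that follows genotype, and their part was not tested apart from that.

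For hippocampal sex (1) the count was 0 without the filter on low counts, 3 by DESeq2, 0 over all 18 libraries and 0 to 2 with each animal left out (11 and 6 genes with an unadjusted p under 0.05 at the 2 settings with a count of 0). The interaction count (1) was 0 with the number range, 0 with relative log expression factors and 0 to 1 with each animal left out, with 1 and 13 genes at an unadjusted p under 0.05, and DESeq2 called 1. With the animal as a block, and over all 36 libraries, the interaction count stayed 1. The count between tissues in controls (72) was 65 to 70 with each animal left out. The cerebellar median was -0.0065 with the number range as a term, 0.0063 within it, and -0.050 to -0.029 with each animal left out; the hippocampal median was 0.00027 to 0.021 with each animal left out, and turned its sign over all 18 libraries (-0.0057), with the number range as a term (-0.0054) and within it (-0.017). Without the filter on low counts cerebellar Zfp429 (adjusted p = 0.0506) and hippocampal Zfp493 (0.0622) lost their calls. The animal block was not run for the trend in 1 tissue, where each animal has 1 library.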
